A study of Mus musculus with 4 samples.

Results

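In normal mouse kidney, spots chosen for inner medulla genes were compared with spots chosen for inner stripe genes, and the choice rested on 6 genes. Within each normal section, every tissue spot was ranked on the counts of itself and its up to 6 array neighbours. The inner medulla set was the top 5% of spots by the pooled share of Slc14a2, Akr1b3 and Aqp2, and the inner stripe set was the top 10% by the pooled share of Slc12a1, Umod and Ptger3. The inner medulla sets held 131 and 134 spots in normal sections 1 and 2 and the inner stripe sets held 262 and 268. Together these were 795 of the 5298 tissue spots of the normal sections and of 10312 in all 4 sections, and 0 spots fell in both sets. The study profiled kidneys on Visium slides, arrays of barcoded spots that each capture polyadenylated RNA from a small region holding several cells. Counts are of unique molecular identifiers (UMIs), tags that mark single captured molecules. Both normal sections came from left kidneys of male WT C57BL/6J mice aged 7 to 8 weeks, labelled Normal ctrl with no treatment named, and were cut at 10 µm from decapsulated frozen kidneys. The 2 ischemic sections came from mice of the same sex, strain and age, taken 24 h after both renal pedicles had been clamped for 30 min. The mouse behind each section is not given, and the study describes technical replicates of 2 mice per condition. The p-values here therefore measure how the difference between the sets varied between sections, a spread which may be technical.

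The inner stripe is the deeper layer of the outer medulla. It is filled with thick ascending limbs, which reabsorb salt through the cotransporter Slc12a1 and secrete uromodulin (Umod), and it carries bundles of vessels and thin limbs. Below it lies the inner medulla with its papilla, where collecting ducts, thin limbs and interstitial cells sit in tissue made hypertonic by salt and urea, and where water leaves the collecting duct through aquaporin 2 (Aqp2) under vasopressin. Cells there hold organic osmolytes such as sorbitol, made by aldose reductase (Akr1b3), and express chaperones that guard proteins against high solute. Oxygen is scarce in the whole medulla, and inner medulla cells are known to draw more of their energy from glycolysis than thick ascending limb cells do.

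**Figure D1:**
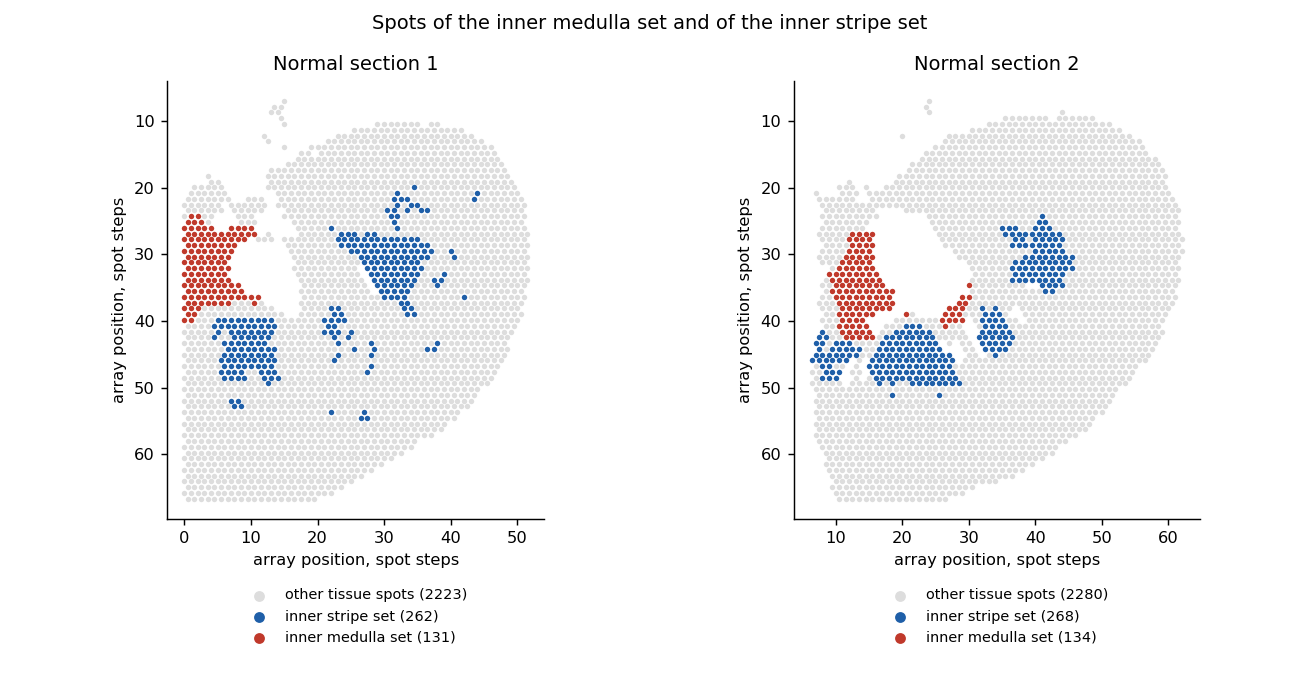
Tissue spots of both normal sections at their array positions (both axes in spot steps), with the inner medulla set in red, the inner stripe set in blue and all other tissue spots in grey. The inner medulla set of normal section 1 is 1 piece at the left margin of the array, and that of normal section 2 is 4 pieces, the largest of 117 spots.

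The inner medulla sets were shallower than the rest of the tissue. Their median depth was 5242 and 3587 UMIs per spot in normal sections 1 and 2, against 13238.5 and 6672 in the inner stripe sets and 16162.5 and 8656 over all tissue spots. Summed over spots, the inner medulla sets held 899170 and 684174 UMIs and the inner stripe sets 3779694 and 1822411. Spots with fewer than 6 tissue neighbours made up 32.1% and 26.1% of the inner medulla sets, but 2.29% and 10.1% of the inner stripe sets. The sections shared 1907 spot barcodes, which on this array mark the same positions for each section. At the cutoffs, the last spot inside the inner medulla set had 4212 and 5372 CPM (UMI counts scaled to a common library total) of its 3 genes and the first spot outside had 4097 and 5354. For the inner stripe set the last spot inside had 7018 and 11379 and the first outside 6976 and 11328, so neither set was set apart by a gap.

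The 6 genes that chose the spots are given as a description only. Levels of genes are in CPM scaled by edgeR's TMM method, and where a pair of values stands for a set, normal section 1 comes first. Akr1b3 was at 5051 and 3398 CPM in the inner medulla sets and 95.8 and 100.5 CPM in the inner stripe sets. Aqp2 was at 6823 and 5767 CPM against 635 and 879 CPM. Both genes were far higher in the inner medulla set of each section. Umod was at 456 and 247 CPM in the inner medulla sets and 12752 and 13206 CPM in the inner stripe sets, and Slc12a1 at 49.7 and 49.7 CPM against 1899 and 2920.5 CPM. Ptger3, a prostaglandin E2 receptor of the thick ascending limb, was at 6.78 and 3.92 CPM against 126 and 176 CPM.

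Slc14a2, the vasopressin-regulated urea transporter, went against the name of the inner medulla set in 1 section. It was at 178 and 78.5 CPM in the inner medulla sets and 82.4 and 339.8 CPM in the inner stripe sets, so it was higher in the inner medulla set of normal section 1 and lower in that of normal section 2. As background, this gene encodes isoforms of the inner medullary collecting duct and an isoform of thin descending limbs in the inner stripe, and gene counts do not separate them. Along the ranking, unscaled CPM of Slc14a2 was 725 in the spots ranked from 5% to 10% in normal section 2, just outside the set, against 152 and 64.1 in the bands from 0% to 2.5% and from 2.5% to 5%. In normal section 1 the same 3 bands stood at 155, 266 and 119. Of the spots chosen by Slc14a2 alone (and not also by Slc12a1 alone), 89 of 97 in normal section 1 but 16 of 41 in normal section 2 were in the inner medulla set. The inner medulla set is therefore a set rich in Aqp2 and Akr1b3, and its name is used below only for the rule that chose it.

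**Figure D2:**
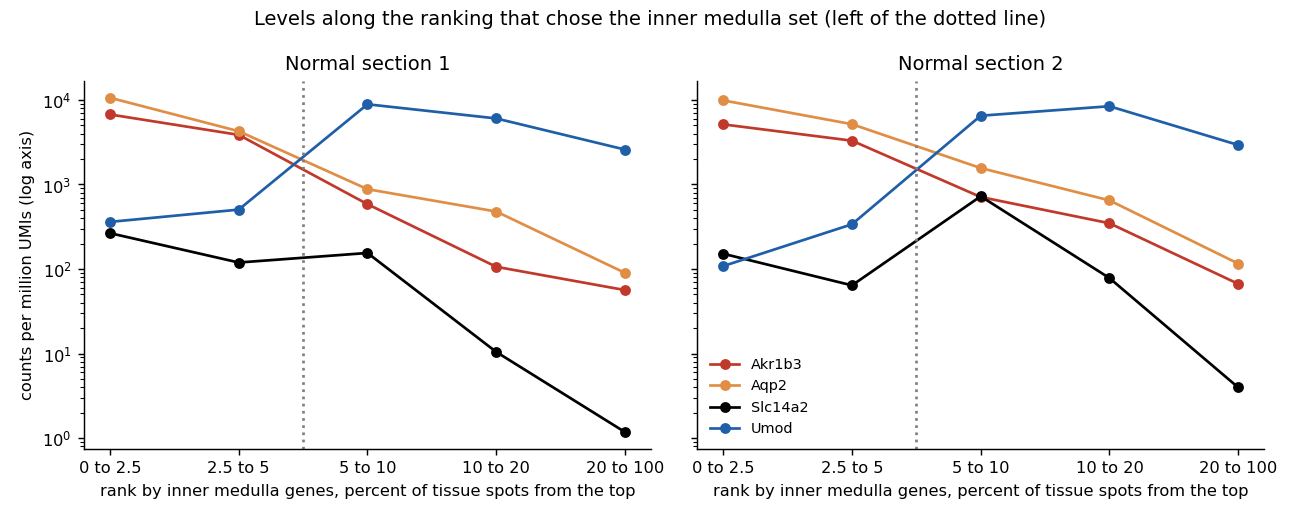
Levels of 3 genes that chose the inner medulla set and of Umod in bands of spots ranked by that choice, as unscaled CPM on a log axis, 1 panel per normal section. Akr1b3 and Aqp2 fall along the ranking in both sections, whereas Slc14a2 is highest at 725 just outside the set in normal section 2.

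The inner medulla sets also held markers of cells that belong to the renal pelvis and its surroundings. The 6 pelvic urothelium markers summed to 3955 and 4502 unscaled CPM there against 37.0 and 395 in the inner stripe sets, and none of the 6 was at 0. With their neighbours, 98.5% and 95.5% of inner medulla spots held at least 10 urothelial counts, against 14.5% and 25.4% of inner stripe spots. Adipocyte markers summed to 4872 and 1922 CPM against 282 and 478, smooth muscle markers to 966 and 817 against 56.4 and 147, and red blood cell markers to 28243 and 2629 against 1128 and 1875. The inner stripe sets in turn held more of the outer stripe proximal tubule list, at 2620 and 748 CPM against 329 and 376, which was highest in normal section 1. A difference between the sets can reflect fewer cells of a type or less RNA per cell, which cannot be told apart in spots. Since the spots were chosen by collecting duct and thick ascending limb genes, other genes of those cells are tied to the choice by their location.

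**Figure D3:**
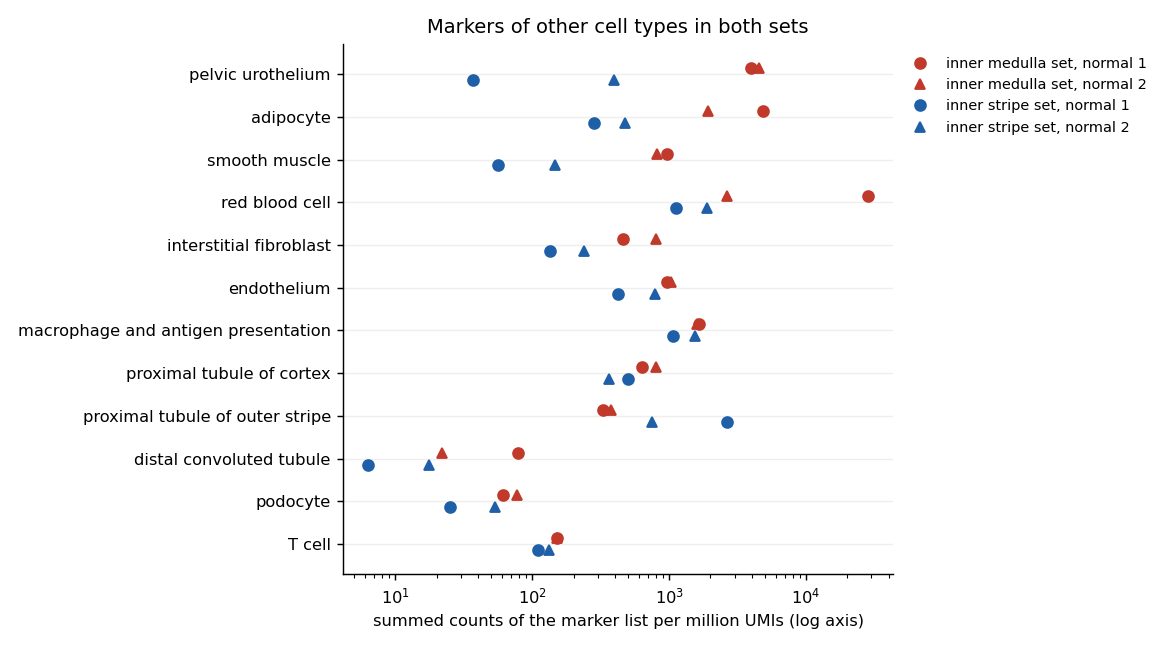
Summed counts of marker lists of other cell types as unscaled CPM (log axis) in the inner medulla sets (red) and inner stripe sets (blue) of normal section 1 (circles) and normal section 2 (triangles). Urothelial, adipocyte and smooth muscle lists are higher in both inner medulla sets than in both inner stripe sets, while the outer stripe proximal tubule list is lower.

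The comparison used counts summed per set and section, with the 6 choosing genes left out, in edgeR's quasi-likelihood test with a block for the section. Of 10383 genes tested, 1824 (17.6%) passed a Benjamini-Hochberg adjusted p of 0.05. In the inner medulla set 906 genes (8.73%) were higher and 918 (8.84%) were lower. The median log2 difference over all genes tested was 0.01, and library sizes without TMM moved this median to 0.23 and the share of higher calls from 49.7% to 62.9%. Differences between sets were wider than those between sections, which follows in part from how the sets were chosen. The SD over genes of the log2 difference was 1.23 and 0.966 between sets within normal sections 1 and 2, and 0.584 and 0.668 between the sections within the inner medulla and the inner stripe sets. The fit had 1 residual degree of freedom per gene before edgeR shared information across genes. When spots were chosen by Slc14a2 alone and Slc12a1 alone, 369 genes passed, of which 335 were among the 1824, and all 1638 of the 1824 that could be measured kept their direction. Of the inner stripe spots chosen this way, 192 of 228 and 165 of 175 were in the main inner stripe sets. The kept direction therefore follows in part from shared spots and is no independent support.

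Genes of the collecting duct principal cell, the cell that takes up water and sodium, differed in both directions. Of 13 listed and tested, 7 rose and 2 fell in the inner medulla set (median log2 difference 1.42). With Slc14a2 and Slc12a1 as the only choosing genes, 2 of 11 rose and 1 fell. Fxyd4, a regulator of the sodium pump in collecting duct, was at 1947 and 3034 CPM in the inner medulla sets against 585 and 914 CPM in the inner stripe sets, a log2 difference of 1.73 ± 0.18 (SE, n = 2 sections, edgeR adjusted p = 0.000624). The groups did not overlap, and the same was true of every gene of this paragraph that passed the test. That largely follows from passing, and the share of all genes tested without overlap was not counted. The tight junction gene Cldn4 stood at 304 and 434 CPM against 19.6 and 40.9 CPM (3.67 ± 0.29, edgeR adjusted p = 0.000243). The basolateral water channel Aqp4 was at 204 and 169 CPM against 51.3 and 29.5 CPM, and the vasopressin receptor Avpr2 at 224 and 230.2 CPM against 71.3 and 93.2 CPM. Cldn8 rose by 1.42 and the transcription factors Elf5 and Gata3 by 3.94 and 3.03 on the log2 scale. The water channel Aqp3, at 146 and 307 CPM against 89.9 and 163 CPM, did not pass (edgeR adjusted p = 0.0566). Its log2 difference was 0.89 without normal section 1 and 0.68 without normal section 2. Here and below, a fit without 1 normal section had the ischemic sections in the model and took its spread from them. Calls gained or lost in such a fit therefore also reflect a change of model.

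The 2 principal cell genes that fell were Scnn1a and Hsd11b2. The sodium channel subunit Scnn1a was at 13.6 and 11.8 CPM in the inner medulla sets and 56.2 and 59.1 CPM in the inner stripe sets (-2.17 ± 0.32 log2, edgeR adjusted p = 0.00266). Hsd11b2, the enzyme that keeps glucocorticoids off the mineralocorticoid receptor, was at 7.91 and 49.7 CPM against 129.9 and 171 CPM (-2.61 ± 0.46, edgeR adjusted p = 0.00518). Its inner medulla values differed widely between the sections, yet both lay below both inner stripe values. Of intercalated cells, the acid-base cells of the collecting duct, 9 genes were listed, of which 7 were tested, 0 rose and 6 fell (median log2 difference -1.76). With 1 choosing gene per set 1 of 6 fell, and DESeq2 and the fit without the section block each called 4 of 7. The ammonia channel Rhcg was at 28.2 and 37.9 CPM against 99.2 and 149.7 CPM, and the anion exchanger Slc4a1 at 12.4 and 34 CPM against 65.8 and 93.2 CPM. Atp6v0d2, a subunit of the proton pump, had 3 counts in the inner medulla sets and 97 in the inner stripe sets, 11-fold lower with a 95% counting interval of 3.67 to 54.5, which covers counting error only. Foxi1, the factor that specifies these cells, was at 5.65 and 2.62 CPM against 12.1 and 17.6 CPM and did not pass (edgeR adjusted p = 0.0637).

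Among 7 tested urea and water channel genes, 3 rose and 0 fell. Beside Aqp4 and Avpr2, which are also on the principal cell list, the third was Slc14a1, the urea transporter of descending vasa recta and red blood cells. It was at 63.2 and 75.8 CPM in the inner medulla sets and 12.1 and 24.3 CPM in the inner stripe sets (2.00 ± 0.30 log2, edgeR adjusted p = 0.00278). Red blood cell markers moved with it in normal section 1 and urothelial markers in both sections (above). The part of either in the result was not tested. Of 9 thin limb genes 7 were tested, 2 rose and 1 fell (3 rose and 3 fell of 8 without normal section 2, 2 and 2 of 9 without normal section 1). Beside Cldn4, which is on both lists, Sptssb rose. This small subunit of serine palmitoyltransferase, the first enzyme of sphingolipid synthesis, was at 394 and 437 CPM against 0 and 15 CPM. Its 0 in normal section 1 was a count of 0 among 3779694 UMIs, which allows up to 3 counts. Fst, the activin binder follistatin, was at 1.13 and 3.92 CPM against 19.6 and 36.8 CPM (edgeR adjusted p = 0.00263).

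Stress genes of hypertonic and heat-shocked cells formed a group with a common direction. Of 10 listed and tested, 8 rose and 0 fell, with a median log2 difference of 1.71 against 0.01 over all genes. The small heat shock protein Cryab (chr9:50751325-50756636, GRCm38, plus strand) was at 8946 and 7331 CPM in the inner medulla sets and 1370.0 and 1085 CPM in the inner stripe sets. The sets lay far apart relative to the sections, and the log2 difference was 2.73 ± 0.15 (SE, n = 2 sections, edgeR adjusted p = 6.25e-05). Sgk1, a kinase induced by high salt and by steroids, was at 579 and 481 CPM against 53.1 and 71 CPM (3.11 ± 0.29, edgeR adjusted p = 0.00039). Hspb1, another small heat shock protein, was at 1023 and 579 CPM against 113 and 195 CPM. The inducible chaperone Hspa1a stood at 261 and 344 CPM against 51.7 and 75.1 CPM, and Hspa1b at 312 and 447 CPM against 35.8 and 78.2 CPM. These 2 are near-identical copies, so the split of reads between them is uncertain, but both moved the same way. Nfat5, the transcription factor that responds to hypertonicity, was at 85.8 and 161 CPM against 46.5 and 73.6 CPM (edgeR adjusted p = 0.0263). Hsph1 and Ranbp3l rose by 1.15 and 0.91 on the log2 scale, while Hspa4l and Dnajb1, at 0.72 and 0.57, did not pass. Ranbp3l was lost without normal section 1 (0.64 log2, edgeR adjusted p = 0.213). Without the section block or with DESeq2, 5 of the 10 passed, and with Slc14a2 and Slc12a1 as the only choosing genes 3 did.

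The 250 bases before the RefSeq start of Hspa1a, Hspa1b and Hspb1 are shown because these genes moved together and because their windows hold the letters of a heat shock element, GAANNTTC, which reads the same on both strands. Capitals mark each match, and the windows are on GRCm38.p6, written 5′ to 3′ on the strand of the gene: chr17:34972157-34972406 (minus strand), chr17:34959239-34959488 (minus strand) and chr5:135887669-135887918 (plus strand), each ending at the base before the RefSeq start.
Hspa1a: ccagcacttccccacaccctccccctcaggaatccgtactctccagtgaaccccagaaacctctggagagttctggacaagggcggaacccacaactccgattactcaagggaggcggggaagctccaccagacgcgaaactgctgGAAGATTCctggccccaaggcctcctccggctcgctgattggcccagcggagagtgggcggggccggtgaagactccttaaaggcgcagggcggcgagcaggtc
Hspa1b: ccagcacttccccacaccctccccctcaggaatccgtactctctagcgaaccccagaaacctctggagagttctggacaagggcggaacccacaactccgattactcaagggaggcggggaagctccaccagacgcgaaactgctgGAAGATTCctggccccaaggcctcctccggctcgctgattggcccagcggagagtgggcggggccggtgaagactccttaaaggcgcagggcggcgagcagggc
Hspb1: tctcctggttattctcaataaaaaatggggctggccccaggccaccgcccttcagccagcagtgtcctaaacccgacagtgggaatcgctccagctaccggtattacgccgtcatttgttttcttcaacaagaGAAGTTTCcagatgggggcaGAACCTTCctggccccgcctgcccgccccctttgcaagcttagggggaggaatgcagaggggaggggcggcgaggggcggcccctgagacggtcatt
The windows of Hspa1a and Hspa1b were identical at 247 of 250 bases, with the match 104 bases before the start in each. The window of Hspb1 held 2 matches, which began 117 and 97 bases before the start. Of the 9 listed genes with a window in RefSeq's table, 4 had a match in at least 1 window (the fourth was Sgk1), against 7.73% of 27025 genes. The near-identical Hspa1a and Hspa1b count separately in this, and Sgk1 had several windows, most without a match. Hsph1, Nfat5 and Ranbp3l, which also rose, had no match, nor had Hspa4l and Dnajb1. Since the list was drawn up to hold heat shock genes, its share is a description and no result. A match is a match of letters and is not a measured binding site.

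Of 9 osmolyte genes listed and tested, 1 rose and 3 fell (median log2 difference 0.23), and aldose reductase, the sorbitol-making enzyme, is not among them because it chose the spots. The betaine carrier Slc6a12 was at 19.2 and 13.1 CPM in the inner medulla sets against 5.86 and 4.14 CPM in the inner stripe sets (1.68 ± 0.46 log2, edgeR adjusted p = 0.0345). The list had 3 higher and 3 lower without normal section 2, with ranking on own counts or with larger sets, and 0 higher and 3 lower without normal section 1. The Slc6a12 call rested on 27 and 25 counts over both sections and was lost without normal section 1 (1.61 log2, edgeR adjusted p = 0.237), with DESeq2 and without the section block. By contrast the inositol carrier Slc5a3 was at 58.7 and 44.5 CPM against 211 and 336 CPM (-2.36 ± 0.33, edgeR adjusted p = 0.002), so it was several times lower in the inner medulla set. The taurine carrier Slc6a6 was at 30.5 and 34 CPM against 97.9 and 68.4 CPM, and sorbitol dehydrogenase (Sord), which breaks sorbitol down, at 183 and 141 CPM against 859 and 309 CPM. In normal section 1 the inner stripe set was also richest in outer stripe proximal tubule markers, and their part in the Sord difference was not tested.

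**Figure D4:**
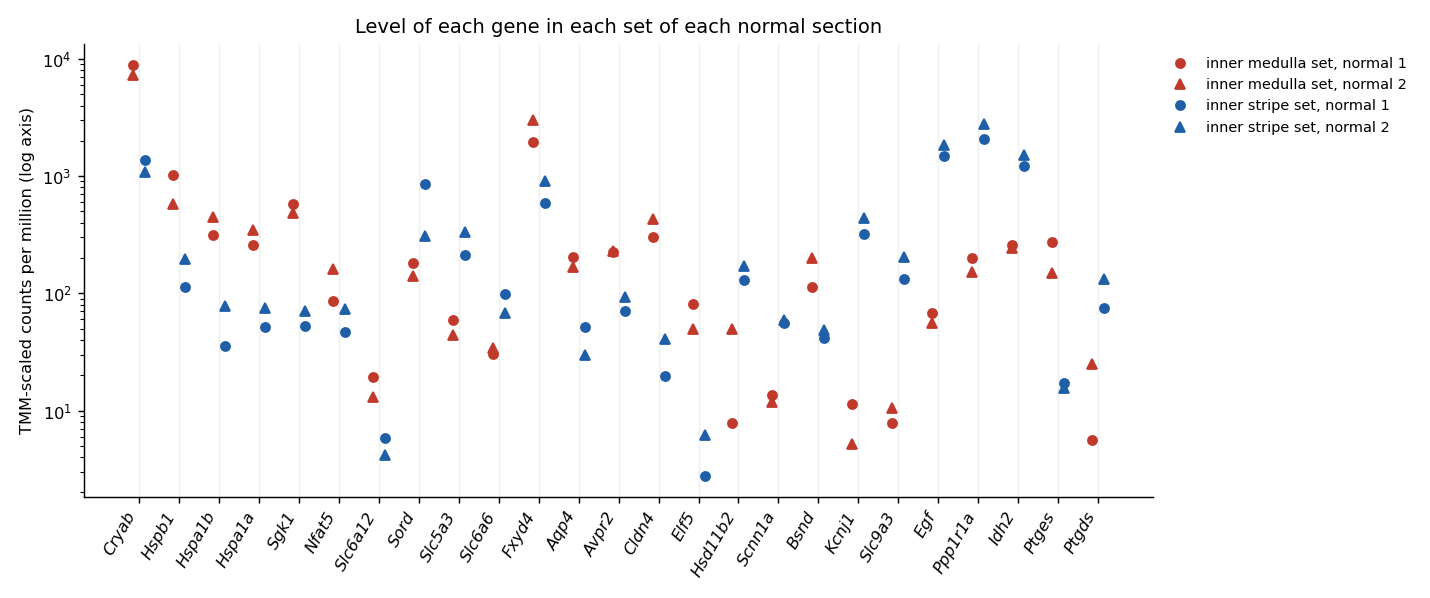
Level of 25 genes in each set of each normal section, as TMM-scaled CPM on a log axis, with inner medulla sets in red and inner stripe sets in blue, and circles for normal section 1 and triangles for normal section 2. For every gene shown the pair of inner medulla values lies wholly above or wholly below the pair of inner stripe values, from Cryab at 8946 and 7331 against 1370.0 and 1085 to Scnn1a at 13.6 and 11.8 against 56.2 and 59.1. The genes shown were picked among those that passed the test, so this separation is a description and no further result.

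Of 9 thick ascending limb transport genes other than those that chose the spots, 7 fell and 1 rose in the inner medulla set (median log2 difference -1.73). With Slc14a2 and Slc12a1 as the only choosing genes, 2 fell and 0 rose. The potassium channel Kcnj1 (ROMK), which recycles potassium for salt uptake, was at 11.3 and 5.23 CPM in the inner medulla sets and 322 and 439 CPM in the inner stripe sets (-5.47 ± 0.41 log2, edgeR adjusted p = 0.000206). The sodium-proton exchanger Slc9a3 was at 7.91 and 10.5 CPM against 133 and 204 CPM. Kcnj10, a basolateral potassium channel, had 1 count in the inner medulla sets and 103 in the inner stripe sets (35.2-fold lower, 95% counting interval 6.17 to 1402), and the calcium-sensing receptor Casr had 0 and 75, at least 8.54-fold lower from a floor of 3 counts over the set. Kcnj16 fell by 1.35 and the kinase Wnk4 by 1.33 on the log2 scale. The gene that rose was Bsnd, the barttin subunit of renal chloride channels. It was at 113 and 199 CPM against 41.7 and 48.7 CPM (1.73 ± 0.27, edgeR adjusted p = 0.0035), higher in the inner medulla set of each section.

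Of 7 other thick ascending limb genes 6 fell and 0 rose (median -2.28). Egf, the epidermal growth factor precursor made by these cells, was at 67.8 and 56.2 CPM against 1493 and 1848 CPM (-4.74 ± 0.26, edgeR adjusted p = 6.25e-05). Ppp1r1a, an inhibitor of protein phosphatase 1, was at 201 and 153 CPM against 2074 and 2798 CPM, and creatine kinase B (Ckb) at 199.9 and 128 CPM against 635 and 735 CPM. Among the claudins that set paracellular permeability in this segment, 4 of 5 were tested and only Cldn10 passed (3 of 4 passed as lower without normal section 2 or with ranking on own counts, and 0 without the section block), at 306 and 612 CPM against 1053 and 1449 CPM (-1.51 ± 0.23). Of the sodium pump's genes, the beta subunit Atp1b1 fell, at 813 and 1033 CPM against 2369 and 2763 CPM (-1.48 ± 0.18, edgeR adjusted p = 0.00113), and its regulator Fxyd2 fell, at 6725 and 5368 CPM against 13037 and 14498 CPM.

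Many genes of oxidative metabolism were lower in the inner medulla set. Of 31 nuclear genes of the respiratory chain 29 fell and 0 rose (median log2 difference -1.27), and of 15 citrate cycle genes 13 fell and 0 rose. Uqcrfs1, the Rieske subunit of complex III, was at 221 and 179 CPM in the inner medulla sets and 937 and 693 CPM in the inner stripe sets (-2.02 ± 0.23, edgeR adjusted p = 0.000927). The mitochondrial isocitrate dehydrogenase Idh2 was at 258 and 245 CPM against 1212 and 1524 CPM, and Cox5b at 1222 and 959 CPM against 3284 and 3101 CPM. Ndufa2 and Ndufb8 did not pass with both sections, at -0.33 and -0.43 on the log2 scale. Of 13 mitochondrially encoded genes 12 were tested and 7 fell (median -0.73), among them mt-Cytb at 4243 and 3183 CPM against 12317 and 8147 CPM and mt-Co3 at 7947 and 6157 CPM against 14994 and 10012 CPM. With DESeq2 or without the section block 1 of these 12 passed, and without normal section 1 or with library sizes alone 4 did. The nuclear chain count was 20 with DESeq2 and 19 without the section block, and the citrate cycle count 8 with DESeq2. With Slc14a2 and Slc12a1 as the only choosing genes 0 of the 31 nuclear chain genes, 1 of the 15 citrate cycle genes and 0 of the 12 mitochondrially encoded genes passed by edgeR.

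Of 16 glycolytic genes 14 were tested, 0 rose and 4 fell (median log2 difference -0.70). The count of falls was 9 of 15 without normal section 1, 7 of 15 without normal section 2, 11 of 14 with ranking on own counts, 8 with smaller sets, 9 with larger sets or the spread of all 4 sections, and 0 with 1 choosing gene per set. Hexokinase 1 (Hk1) was at 57.6 and 60.2 CPM against 137 and 183 CPM, the phosphofructokinase Pfkp at 31.6 and 47.1 CPM against 125 and 139.9 CPM, and Tpi1 at 386 and 354 CPM against 1035 and 675 CPM. The phosphofructokinase Pfkm was the remaining one, at 27.1 and 23.5 CPM against 65.1 and 73.6 CPM. Of 11 hypoxia response genes 10 were tested, of which 1 rose and 2 fell (median -0.25). Over all genes tested 8.73% rose and 8.84% fell, so these small counts are not read as a result about the list. The oxygen-regulated factor Hif1a was at 150.2 and 131 CPM against 58.6 and 63.2 CPM (1.21 ± 0.26, edgeR adjusted p = 0.0125). Vegfa, the vessel growth factor, was at 30.5 and 26.2 CPM against 56.5 and 104 CPM and the mitophagy gene Bnip3 at 63.2 and 57.5 CPM against 165 and 118 CPM, so both were lower in the inner medulla set. DESeq2 called 0 of these 10 genes, and Vegfa also missed the threshold without normal section 2 (-0.90 log2, edgeR adjusted p = 0.0604).

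**Figure D5:**
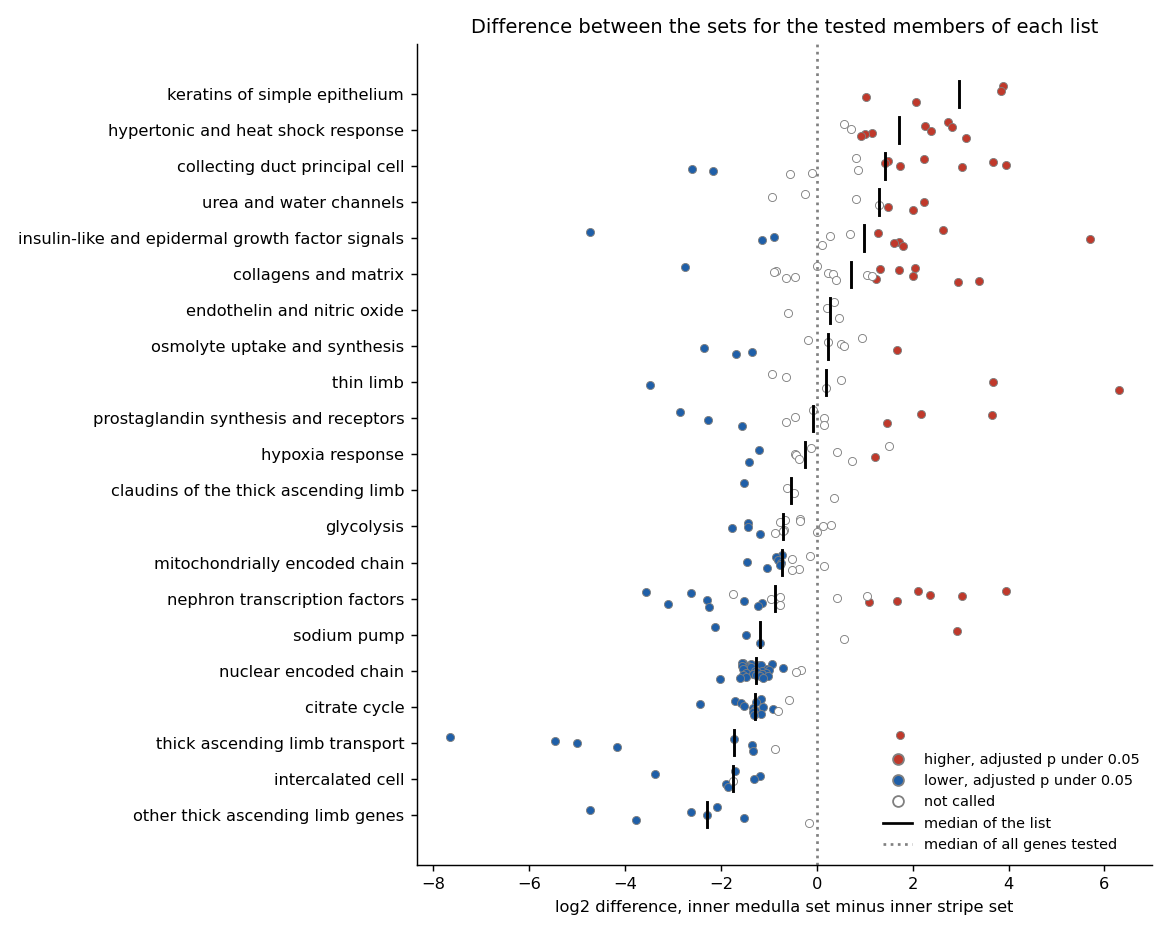
Log2 difference between the inner medulla and inner stripe sets (edgeR, 2 normal sections) for the tested members of each list, filled where the adjusted p was under 0.05, with the list's median as a black bar and the median of all genes tested as a dotted line. Stress and collecting duct lists lie mostly to the right, and respiratory chain, citrate cycle, intercalated cell and thick ascending limb lists mostly to the left.

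Prostaglandin genes went in both directions. Of 16 listed 11 were tested, 3 rose and 3 fell (median -0.07), and DESeq2 called 2 higher and 1 lower. Ptges, the inducible prostaglandin E synthase, was at 277 and 149 CPM in the inner medulla sets and 17.2 and 15.5 CPM in the inner stripe sets (3.66 ± 0.31, edgeR adjusted p = 0.000301). The cyclooxygenase Ptgs1 was at 66.6 and 47.1 CPM against 14.8 and 28.5 CPM, and the prostaglandin E2 receptor Ptger1 at 155 and 203 CPM against 29.3 and 52.8 CPM. Ptgs1 missed the threshold without normal section 1 (0.69 log2, edgeR adjusted p = 0.269) and with DESeq2. In the other direction, the prostaglandin D synthase Ptgds was at 5.65 and 24.8 CPM against 74.4 and 132 CPM (-2.86 ± 0.37, edgeR adjusted p = 0.00151). The thromboxane synthase Tbxas1 was at 4.52 and 7.85 CPM against 13.4 and 23.3 CPM and the receptor Ptgfr at 5.65 and 1.31 CPM against 15.5 and 20.7 CPM, and DESeq2 called neither. Tbxas1 was lost without either section (-1.59 and -1.57 log2) and Ptgfr without normal section 2 (-1.46 log2). Of 9 endothelin and nitric oxide genes 4 were tested and 0 passed by edgeR or by DESeq2.

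Of 22 transcription factors of the nephron 20 were tested, 6 rose and 8 fell (median log2 difference -0.87), and with DESeq2 4 rose and 4 fell. Esrrb, an orphan receptor of the estrogen receptor family, was at 3.39 and 9.15 CPM against 59.3 and 87 CPM (-3.57 ± 0.38, edgeR adjusted p = 0.000687). The mitochondrial coactivator Ppargc1a was at 10.2 and 7.85 CPM against 62.4 and 101 CPM, Irx1 at 12.4 and 26.2 CPM against 101 and 82.9 CPM and Tfcp2l1 at 5.65 and 28.8 CPM against 69.6 and 80.3 CPM. Those that rose included Gata2, at 67.8 and 54.9 CPM against 9.65 and 15 CPM, and Elf3, at 147 and 122 CPM against 27.6 and 34.7 CPM, beside Elf5 and Gata3. Of 12 insulin-like and epidermal growth factor genes, 6 rose and 3 fell. The binding protein Igfbp2 was at 65.5 and 374 CPM against 0.345 and 9.32 CPM, Igfbp5 at 577 and 773 CPM against 149.5 and 315 CPM, osteopontin (Spp1) at 4562 and 3399 CPM against 769 and 1675 CPM and clusterin (Clu) at 489 and 344 CPM against 45.8 and 95.8 CPM. Each of these was higher in both inner medulla sets than in both inner stripe sets, and Igfbp2 also differed widely between the inner medulla sets themselves. Igf1r fell by 0.90 on the log2 scale (edgeR adjusted p = 0.0478), a call lost without normal section 1 (-0.87 log2, edgeR adjusted p = 0.0522).

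Of 5 keratins of simple epithelium 4 were tested and all 4 rose (median 2.96). Krt18 was at 1032 and 777 CPM in the inner medulla sets against 37.9 and 95.8 CPM in the inner stripe sets, Krt19 at 279 and 123 CPM against 5.17 and 25.4 CPM and Krt8 at 570.4 and 467 CPM against 122 and 125 CPM. Krt7, at 1.02 on the log2 scale, had the smallest difference. Pelvic urothelium markers rose in 6 of 6, among them Psca at 2405 and 3041 CPM against 17.9 and 182 CPM and the uroplakin Upk3a at 722 and 514 CPM against 14.1 and 85.5 CPM. Of 18 collagen and matrix genes 7 rose, 1 fell and 10 did not pass (median 0.72). Smaller sets gave 5 higher and 5 lower, and leaving out normal section 2 gave 9 higher and 4 lower. Decorin (Dcn) was at 218 and 328 CPM against 69.9 and 62.7 CPM, Lum at 28.2 and 30.1 CPM against 1.03 and 5.18 CPM, Col1a1 at 42.9 and 60.2 CPM against 11.4 and 12.9 CPM and tenascin (Tnc) at 33.9 and 51 CPM against 0.689 and 12.9 CPM. Lamb2 rose by 1.23, whereas Col15a1, a basement membrane collagen of vessels, fell by 2.74 on the log2 scale.

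Lists of other cell types differed in the same fit. Adipocyte markers rose in 4 of 4 tested (5 listed), with Cfd at 2521 and 927 CPM against 3.45 and 0.518 CPM and Fabp4 at 2246 and 723 CPM against 363 and 451 CPM. Smooth muscle markers rose in 4 of 5, with Cnn1 at 183 and 126 CPM against 1.03 and 1.55 CPM and Acta2 at 478 and 315 CPM against 34.5 and 57 CPM. Fibroblast markers rose in 4 of 6 and red blood cell markers in 2 of 5, the latter Alas2 at 90.4 and 9.15 CPM against 4.82 and 6.73 CPM and Hbb-bt at 1582 and 112 CPM against 66.8 and 62.7 CPM, far higher in normal section 1. Without that section Fabp4 stood at 0.65 and Alas2 at 0.41 log2 and neither passed, and Hbb-bt was at 0.81. The red blood cell list gave 5 of 5 higher without normal section 2 or with library sizes alone. Of the cortical proximal tubule list 5 of 6 were tested and 3 rose, among them Slc34a1 at 426 and 471 CPM against 235 and 199.9 CPM. That list gave 1 higher without normal section 1, 0 with DESeq2, and 0 higher and 1 lower with ranking on own counts or smaller sets. Outer stripe proximal tubule markers fell in 4 of 5, with Serpina1f at 52 and 47.1 CPM against 1222 and 239.8 CPM and Slc7a13 at 50.8 and 43.2 CPM against 717 and 129 CPM. Endothelial markers gave 2 higher (Emcn and Slc14a1) and 1 lower (Kdr, lost without normal section 1 at -1.07 log2) of 8, and macrophage markers 1 higher (Lyz2) and 1 lower (Csf1r) of 8. With 8.73% of all genes tested higher and 8.84% lower, these small counts are not read as results about either list. The only tested distal convoluted tubule marker, Slc12a3, was called higher at 75.7 and 17 CPM against 6.89 and 14 CPM, with 1 inner medulla value close to the inner stripe values, and the call was lost without normal section 1 (log2 difference 0.25, edgeR adjusted p = 0.849). Of the T cell list 4 of 8 and of the podocyte list 2 of 5 were tested, with 0 called by edgeR or DESeq2, and none of 4 neutrophil markers had the counts to be tested.

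Because those cells sat in the inner medulla set, the fit was repeated, after the data had been seen, with only the 65 and 67 of its spots that held the smallest shares of urothelial, smooth muscle, adipocyte and red blood cell markers. It gave 679 higher and 1018 lower genes of 9873 tested, and 1348 of the 1824 calls remained. Of the stress list 8 of 10 again rose, and of the principal cell list 8 rose and 2 fell of 13. The nuclear chain list kept 29 of 31 lower and the citrate cycle list 14 of 15, and 9 of 12 mitochondrially encoded genes fell. Keratins still rose in 4 of 4 and urothelial markers in 5 of 5 tested, so urothelial RNA was not removed by this choice. Connective tissue and fat lists changed: fibroblast markers rose in 0 of 4 (edgeR), collagen and matrix genes in 2 of 14 with 4 lower, and of the adipocyte list only Fabp4 could be tested, which turned to -1.25. Since the spots were chosen for few fat, muscle, urothelial and red blood cell markers, the changes in those lists follow from the choice and are no result. Slc34a1 turned to -0.49 and Lyz2 to -0.020, and Dcn no longer passed.

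The 10 genes with the largest rise among those called with a mean of at least 20 CPM were Cidea, Rasal1, Cfd, Retn, Car3, Adipoq, Cox8b, Pi16, Aldh1a3 and Adig, most of them known from adipocytes. Cidea, a lipid droplet gene, had 122 counts in the inner medulla sets and 0 in the inner stripe sets, at least 119-fold higher. Resistin (Retn) had 365 and 2 counts, a 534-fold ratio with a counting interval of 147 to 4430.2. Adiponectin (Adipoq) had 184 and 1 counts, and Pi16, Cox8b and Adig had 1 to 2 counts in the inner stripe sets. Car3 was at 612 and 188 CPM against 0.689 and 1.04 CPM. Aldh1a3 and Rasal1 were alike in both sections. Aldh1a3, which makes retinoic acid, was at 354 and 374 CPM against 2.07 and 2.59 CPM (7.26 ± 0.36, edgeR adjusted p = 6.04e-05). The Ras regulator Rasal1 had 113 counts against 0, at least 110-fold higher. In the inner medulla spots poorer in other cell types Aldh1a3 and Rasal1 still passed (edgeR adjusted p = 1.43e-06 and 3.17e-05), whereas the other 8 had too few counts to be tested. Urothelial markers also stayed higher in those spots, with Psca at 5.62 and Upk3a at 3.63 log2, and their part in either gene was not tested.

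The 10 largest falls were Kcnt1, Dusp15, Tmem207, Kcnj1, Gpx6, Pla1a, Kng2, Defb42, 1700028J19Rik and Mfsd4a. The potassium channel Kcnt1 had 1 count in the inner medulla sets and 405 in the inner stripe sets, a 138-fold ratio with a counting interval of 24.7 to 5475. Dusp15 and Tmem207 also had 1 count each in the inner medulla sets, against 248 and 244. Gpx6, a glutathione peroxidase, was at 10.2 and 10.5 CPM against 388 and 534 CPM (-5.45 ± 0.33, edgeR adjusted p = 6.83e-05). The kininogen Kng2 was at 20.3 and 14.4 CPM against 591 and 678 CPM and the phospholipase Pla1a at 2.26 and 3.92 CPM against 109.9 and 132 CPM. Mfsd4a had 4 counts against 354, the defensin Defb42 2 against 221, and 1700028J19Rik 3 against 288. All 10 were lower in both sections.

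The inner medulla set was not uniform, which is given as a description since the division was made after values had been seen. Its spots were divided at the median distance from the inner stripe set (8.66 and 6.40 spot steps). Unscaled CPM of Fxyd4 was 3259 and 5314 in the nearer part and 1076 and 1676 in the farther part. Psca was at 3790 and 4799 against 1476 and 2149, Aqp3 at 199 and 493 against 109 and 210, Nfat5 at 113 and 270 against 66.9 and 99.6, and Sgk1 at 684 and 654 against 499 and 434. Adipoq had 0 counts in the nearer part of either section and was at 248 and 130 CPM in the farther part, and Acta2 was at 191 and 34.1 against 646 and 636. mt-Cytb was lower in the nearer part, at 2846 and 2434 CPM against 5013 and 4560, and Slc34a1 at 225 and 183 against 541 and 832. Cryab was at 8267 and 10215 CPM in the nearer part against 9149 and 6391 in the farther part, so the sections differed in direction. Cryab and Sgk1 were detected in both parts, while Adipoq and Acta2 were higher in the farther part of each section.

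The same rule was applied to the ischemic sections to ask whether the difference between the sets differed there. It gave 76 and 111 inner medulla spots and 196 and 241 inner stripe spots, with 44 and 20 spots in both sets dropped. The ischemic inner medulla sets held 4901 and 2269 unscaled CPM of the 3 inner stripe genes, against 505 and 336 in the normal ones. Of their own 3 choosing genes they held 3259 and 4876 CPM, against 11868 and 10331. With their neighbours, 43.4% and 73.9% of their spots held at least 10 urothelial counts, against 98.5% and 95.5%. The choosing genes also differed in their parts. Median Slc14a2, pooled over neighbours and unscaled, was 1303 and 631 CPM in the ischemic inner medulla sets, against 169 and 84.0 in the normal ones. Median Akr1b3 was 176 and 651 against 4711 and 3748, and median Aqp2 1015 and 3221 against 6935 and 6740. The description as rich in Aqp2 and Akr1b3 thus holds for the normal sets only. The sets were less apart and unlike the normal ones in make-up, and the part of this in the changes below was not tested. Of 11254 genes tested in a model with a set term per condition, 266 (2.36%) passed for the difference between conditions, 1.26% upwards and 1.1% downwards. Stress genes were among them: of 10 tested, 4 had a smaller difference in ischemic sections, namely Cryab (a change of -2.78 ± 0.18 log2, edgeR adjusted p = 0.000256), Hspb1 (-2.60), Hspa1a (-1.93) and Hspa1b (-2.48). Cryab was at 9371 and 7657 CPM in the normal and 917 and 833 CPM in the ischemic inner medulla sets, and at 1444 and 1133 CPM in the normal and 953 and 861 CPM in the ischemic inner stripe sets. Among thick ascending limb transport genes 3 of 9 (Kcnj1 and Slc9a3 among them) and among nuclear chain genes 11 of 31 changed towards a smaller fall. These counts rest on both ischemic sections: 6 genes passed without ischemic section 1 and 15 without ischemic section 2.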

How the data were processed

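Gene expression was measured by Visium in 2 normal and 2 ischemic mouse kidney sections, all on 1 slide by the slide serial number in the labels. The authors deposited whole-number UMI counts of each gene in each spot, made with Space Ranger 1.3.0 (file header) on mm10 (submitters' processing notes), together with spot positions, and no normalization had been applied. Spots marked as tissue were used, and 99.6% of 32285 identifiers were matched to GENCODE M21 for coordinates.

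Sets were chosen per section as described above, and counts were summed per set and section. Genes were kept by edgeR's filterByExpr, scaled by TMM and fitted by edgeR 4.0.16 (R 4.3.3) with a set term and a section block, and for the difference between conditions with a set term per condition. The block follows from both sets lying in the same section. An adjusted p of 0.05 was the threshold. DESeq2 1.42.0, other scalings, filters, set sizes, rankings, thinning and leaving out sections were alternatives, and the scripts were tested on simulated data. Totals per set ranged from 684174 to 3779694 UMIs in normal sections.

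Genes named were the 6 choosing genes, the 10 largest rises and falls among called genes with a mean of at least 20 CPM, the 5 largest changes in each direction between conditions, and list members. The members, gene lists and tests were chosen with earlier results of these data known. Genes of cell type lists were named after their values were seen. Intervals and floors (3 counts) cover counting error only. Windows before gene starts came from RefSeq's table. Some genes that these rules name are not reported here.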

Additional observations from a re-analysis of the deposited data

Results flagged for a closer look

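In the test of the difference between ischemic and normal sections, the 9 genes below were among those with the largest called changes and with a mean of at least 20 CPM, and each is given because its difference between the sets differed between the conditions by that test (edgeR's quasi-likelihood test, Benjamini-Hochberg adjusted). All values are TMM-scaled CPM from the fit of all 4 sections, section 1 first, and changes are on the log2 scale. The ischemic sets were less apart in their own choosing genes. The ischemic inner medulla sets held 4901 and 2269 unscaled CPM of inner stripe genes, against 505 and 336 in normal sections. They held 3259 and 4876 CPM of the inner medulla choosing genes, against 11868 and 10331. The part of this in each change was not tested.

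Kcnj1, the potassium channel of the thick ascending limb, changed by 4.09 ± 0.50 (edgeR adjusted p = 0.00731). It was at 11.8 and 5.46 CPM in the normal and 78.9 and 44.3 CPM in the ischemic inner medulla sets, and at 339.5 and 458 CPM in the normal and 149.6 and 159.6 CPM in the ischemic inner stripe sets, so it was higher in the ischemic inner medulla sets and lower in the ischemic inner stripe sets. Pla1a, a phospholipase, changed by 4.78 ± 0.47 (edgeR adjusted p = 0.00329) and went the same way, from 2.37 and 4.1 to 38.7 and 32.4 CPM in the inner medulla sets and from 116 and 137 to 54.4 and 45.8 CPM in the inner stripe sets. Fam107a changed by 4.96 ± 0.53 (edgeR adjusted p = 0.00513). Its inner stripe level went from 155 and 75.7 to 5.16 and 10.1 CPM while its inner medulla level was 9.46 and 5.46 and 14.5 and 16.8 CPM. Ppp1r1b, a phosphatase inhibitor, changed by 4.44 ± 0.53 (edgeR adjusted p = 0.00669), with 164 and 298 CPM in normal and 9.85 and 11.1 CPM in ischemic inner stripe sets. Lypd2 changed by 4.15 ± 0.63 (edgeR adjusted p = 0.0123). It fell in both sets, from 237 and 402 to 17.7 and 52.7 CPM in the inner medulla and from 79.2 and 104 to 0.469 and 0.503 CPM in the inner stripe.

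The other 4 genes had a smaller rise, or none, in the ischemic inner medulla sets. Aldh1a3, which makes retinoic acid, changed by -5.19 ± 0.95 (edgeR adjusted p = 0.0247), from 370.3 and 391 CPM in the normal to 1.61 and 7.19 CPM in the ischemic inner medulla sets, with 2.18 and 2.7 CPM in the normal and 0.469 and 1.51 CPM in the ischemic inner stripe sets. Rasal1 had a fitted change of -7.06 (edgeR adjusted p = 0.0292), which is no bound since its normal inner stripe sums held 0 counts. It was at 66.3 and 77.9 CPM in the normal and 8.06 and 20.4 CPM in the ischemic inner medulla sets. Car3 changed by -7.91 ± 1.03 (edgeR adjusted p = 0.00743), from 641 and 197 to 3.22 and 3.59 CPM in the inner medulla sets. Hp, haptoglobin, changed by -6.99 ± 1.19 (edgeR adjusted p = 0.0181), from 130.1 and 27.3 to 3.22 and 1.2 CPM. Car3 is a fat gene, and adipocyte markers were part of the normal inner medulla sets. Without ischemic section 1 only the change of Pla1a passed among these 9, and without ischemic section 2 those of Fam107a, Pla1a and Kcnj1.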

How the results depend on the processing

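The counts of 906 higher and 918 lower genes kept within 1.5 times of these values under the settings not named here. DESeq2 gave 412 higher and 436 lower, library sizes without TMM 1438 higher, ranking on own counts 1721 and 1844, larger sets (top 10% and 20%) 2123 and 2336, and Slc14a2 and Slc12a1 alone 265 and 104. Without the replicate block, which pairs the sets of 1 section because both come from the same tissue, 532 genes were lower and 642 higher. Leaving out 1 section at a time used a fit of the remaining normal and ischemic sections, in which a lone section is assumed to vary like the others. It gave 662 to 1328 higher and 725 to 1620 lower genes, with the highest counts without normal section 2. The ends of these ranges came from fits without a normal section, which took their spread from the ischemic sections. They are therefore not comparable with the 906 and 918 of the main fit, which used the normal sections only. The 266 genes that differed between conditions became 126 with DESeq2, 899 without the filter, 100 without the replicate block, 1366 on own counts, 706 on neighbours alone, 473 with smaller and 1574 with larger sets, 52 with 1 gene per set, and 166 after thinning to equal depth. Leaving out 1 section gave 6 (ischemic section 1) to 1318 (normal section 2), with 15 without ischemic section 2. Library sizes without TMM moved the median change between conditions from -0.02 to -0.14. The cause of these moves was not tested.

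Over 120 named genes, 2056 of 2234 values kept direction and side of the threshold, 146 lost the call, 24 gained it and 8 turned. With 1 gene per set 61 lost the call and 50 stayed on the same side of the threshold, whether called or not. In inner medulla spots poorer in other cell types, a setting chosen after seeing the data, Fabp4 turned to -1.25, Hbb-bt to -1.01, Slc34a1 to -0.49, Slc12a3 to -0.100 and Lyz2 to -0.020. Slc34a1 was also at -0.42 on own counts and -0.26 in smaller sets, and Slc12a3 at -0.19 on own counts. Between conditions, 125 of 158 values over 9 genes kept their call, 32 lost it, and Lypd2 turned to -1.41 with 1 gene per set. Leaving out spots with at least 10 urothelial counts was not run, since fewer than 20 inner medulla spots would remain in each normal section. In simulated counts of 10383 genes edgeR recovered 17 of 100 genes changed 2-fold and 87 of 100 changed 4-fold between the normal sets. Beside these 17 and 87 calls it made 9 false ones. The simulated counts held no difference between sections, so they did not test the section block.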
